A study of Mus musculus with 11 samples.

Results

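Mouse chromosome 10 carried 984 of the 21534 gene regions (4.57%) for which lamin B1 contact was scored in oligodendrocyte precursor cells (OPC) and in the same kind of cells moved towards oligodendrocytes (OL). A region is a gene with its flanks: 69.2% of the 962 regions matched to a RefSeq gene began within 100 bp of 10000 bp upstream of it, and 85.4% ended within 100 bp of 2000 bp downstream. The regions were taken by chromosome name and ordered by start, from 3254208 to 130507379 (mm10), and read in 1 Mb bins. The chromosome was chosen by the OL minus OPC differences, for its long runs of regions with higher scores in OL, with stretches at 76.0 to 78.0 Mb (32 regions) and 80.4 to 80.8 Mb (20 regions) singled out. That difference is therefore given here as a description. Counts of regions past a threshold for it are printed only beside the share over all regions, and support nothing.

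Lamin B1 is a protein of the nuclear lamina, the mesh that lines the inner face of the nuclear envelope. Chromatin that touches it forms lamina-associated domains, which are typically poor in genes, replicate late and hold many silent tissue-specific genes, whereas active, gene-dense chromatin tends to lie away from it. In DamID, a fusion of lamin B1 to the bacterial enzyme Dam methylates adenine in GATC sites near the lamina, and untethered Dam measures how open each site is to the enzyme.

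The cells, labelled WT (wild type) in all libraries, came from the cortex of C57BL/6 mice at postnatal day 7, and lentivirus delivered Dam-LMNB1 or Dam alone for 1 day. They then spent 72 h in proliferation medium (labelled PF, here OPC) or in differentiation medium (labelled T3, here OL). The series has 11 libraries in 4 groups: OPC with Dam-LMNB1 (3, numbered 8, 9 and 10), OPC with Dam (2), OL with Dam-LMNB1 (3, numbered 18, 19 and 20) and OL with Dam (3). Scores exist for the 6 Dam-LMNB1 libraries, each taken against the Dam libraries of that condition as 1 pool. A score above 0 is read as more Dam-LMNB1 than Dam signal. All scores of a condition share 1 Dam pool, so the spread between libraries, and each p-value, leaves out the variation of Dam. No label ties the libraries to separate animals or cultures, so that spread may be technical. No log base is stated for them. Differences are therefore in score units and not folds, and the read depth is unknown. DamID measures no RNA, so marker genes cannot check the identity of the cells.

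Over the 984 regions, Pearson's r between libraries of 1 condition was 0.992 to 0.996, and between conditions 0.976 to 0.982. The median absolute difference per region was 0.076 to 0.151 within a condition and 0.210 to 0.287 between conditions. OL library 18 had the narrowest scores, with an SD over chromosome 10 of 1.52, where the other 5 had 1.59 to 1.64. Across all 21534 regions the median OL minus OPC difference was 0.10, and it became 0.02 once the libraries were brought to one mean and SD (below, equal mean and SD).

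The sequences below are the 250 bases upstream of 6 genes that the results turn on, in GRCm38.p6 (RefSeq), each read 5′ to 3′ on the gene's own strand. They show how many sites Dam could mark just before a start: capitals are GATC, a palindrome that reads the same on both strands. S100b (chr10:76253586-76253835, plus strand) and Col6a1 (chr10:76726045-76726294, minus) lie in the first stretch. Tcf3 (chr10:80433636-80433885, minus) and Sf3a2 (chr10:80798485-80798734, plus) lie in the second. E2f7 (chr10:110745189-110745438, plus) and Mettl7b (chr10:128960989-128961238, minus) are genes outside the stretches with a large upward and the largest downward difference on the chromosome.
S100b: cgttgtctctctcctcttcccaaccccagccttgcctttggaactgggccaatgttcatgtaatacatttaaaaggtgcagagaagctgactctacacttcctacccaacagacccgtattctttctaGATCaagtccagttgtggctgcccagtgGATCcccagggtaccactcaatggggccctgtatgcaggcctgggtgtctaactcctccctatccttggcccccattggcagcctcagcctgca
Col6a1: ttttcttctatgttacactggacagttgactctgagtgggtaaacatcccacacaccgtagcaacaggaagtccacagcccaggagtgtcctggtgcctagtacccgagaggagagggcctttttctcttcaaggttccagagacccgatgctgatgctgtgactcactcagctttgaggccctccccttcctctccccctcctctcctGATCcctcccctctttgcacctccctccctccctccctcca
Tcf3: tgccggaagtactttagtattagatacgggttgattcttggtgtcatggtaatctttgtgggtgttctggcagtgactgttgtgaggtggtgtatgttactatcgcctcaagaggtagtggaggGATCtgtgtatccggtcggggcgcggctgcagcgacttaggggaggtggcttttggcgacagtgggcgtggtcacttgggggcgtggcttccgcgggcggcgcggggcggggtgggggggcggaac
Sf3a2: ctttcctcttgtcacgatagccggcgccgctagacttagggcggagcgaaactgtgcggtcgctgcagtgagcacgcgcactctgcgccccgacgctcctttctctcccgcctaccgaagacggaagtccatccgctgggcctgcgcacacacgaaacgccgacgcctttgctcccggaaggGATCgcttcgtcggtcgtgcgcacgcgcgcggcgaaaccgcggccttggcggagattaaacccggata
E2f7: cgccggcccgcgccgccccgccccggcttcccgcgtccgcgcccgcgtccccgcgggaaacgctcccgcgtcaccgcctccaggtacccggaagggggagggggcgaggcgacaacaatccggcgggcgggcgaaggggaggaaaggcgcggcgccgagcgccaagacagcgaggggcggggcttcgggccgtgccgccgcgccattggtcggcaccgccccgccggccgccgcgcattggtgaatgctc
Mettl7b: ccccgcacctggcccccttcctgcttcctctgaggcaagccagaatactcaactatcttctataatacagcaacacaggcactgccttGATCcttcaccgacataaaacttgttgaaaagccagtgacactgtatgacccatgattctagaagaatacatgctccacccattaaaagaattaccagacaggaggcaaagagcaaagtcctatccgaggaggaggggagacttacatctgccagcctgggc
S100b had 2 GATC sites in this window, Col6a1, Tcf3, Sf3a2 and Mettl7b had 1 each, and E2f7 had 0. Of the 722 of 974 chromosome 10 symbols with a promoter entry, 36.2% held GATC in these 250 bases, against 39.8% of the 15099 promoters matched to any scored region and 41.9% of all 32851 promoters in the table. The share was 58.3% in the first stretch (14 of 24 promoters) and 53.3% in the second (8 of 15). Base composition of the same windows moved with the scores: median GC content was 46% where the OPC score was above 0 and 60.6% where it was below 0, and Spearman's rho of GC content with the OPC score was −0.410 over 722 promoters, which share libraries and neighbours. The part of GC content and of GATC number in the scores was not tested.

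Most of chromosome 10 scored low in both conditions. In OPC, 675 regions (68.6%) had a mean below 0 and 281 (28.6%) above 0, at an adjusted p of 0.05 (limma, two-sided, Benjamini-Hochberg over all regions). Over the whole table, 71.4% of regions were below 0 in OPC and 25.5% above. In OL, 659 chromosome 10 regions (67.0%) were below 0 and 295 (30.0%) above, against 70.9% and 25.9% of all regions (limma). The shares on chromosome 10 are thus a few percentage points from the background. The share of chromosome 10 regions with a score above 0 was 29.6% ± 0.269 (SD, n = 3) for OPC and 31.6% ± 1.04 for OL. Those shares ranked 8th and 7th of 20 chromosomes. In bulk samples, fewer cells with a contact and weaker contact per cell cannot be told apart.

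On chromosome 10, 648 regions were below 0 in all 6 libraries and 275 above 0 in all 6. Of the other 61 regions, 15 were below 0 in every OPC library and above 0 in every OL library, and 3 went the other way. Over all 21534 regions, 1123 had mixed signs, 161 of them turning upward in this way and 116 downward.

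The OL minus OPC difference was above 0 in 711 regions and below 0 in 273 (13728 and 7806 of all 21534 regions). Its median was 0.15, from OPC and OL medians of −1.46 and −1.23. On equal mean and SD, the split was 615 above and 369 below, and after quantile normalization 608 and 376, with medians of 0.090 and 0.088. On these scales 11319 and 11235 of all 21534 regions were above 0. The 3 OL libraries all lay above the 3 OPC libraries in 437 regions (44.4%, against 33.5% of all regions) and all lay below in 111 (11.3%, against 15.4%). By limma, 318 regions passed as higher (32.3%, against 23.0% of all regions) and 72 as lower (7.32%, against 10.9%). On equal mean and SD these became 239 and 102. Since this contrast chose the chromosome, nothing is read from these counts.

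The higher scores in OL were found mostly at low and middle levels. Where the OPC mean was below −1, the median difference was 0.20 in 570 chromosome 10 regions and 0.15 in regions of the other chromosomes. From −1 to 0.5 it was 0.18 in 179 regions, against 0.01 elsewhere. Above 0.5 it was 0.04 in 235 regions, against −0.03. Spearman's rho of OPC score and difference was −0.25 over the 984 regions and −0.36 over all regions. These 2 quantities share the OPC libraries, and 63.6% of chromosome 10 regions overlap a neighbour. The class medians and rho values were taken on the deposited scores only.

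Along the chromosome, high and low scores formed blocks. Of 116 bins of 1 Mb with a region, 50 had a median OPC score above 0 and 66 below. Pearson's r of bin medians between OPC and OL was 0.986, so the blocks lay in the same places in both conditions. 6 of the 7 bins with more than 25 regions had a median OPC score below 0, and 18 of the 26 bins with 2 regions or fewer had one above 0. Spearman's rho of the number of regions per bin was −0.51 with the median OPC score and 0.07 with the median difference. The bins share libraries, so these are descriptions.

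**Figure D1:**
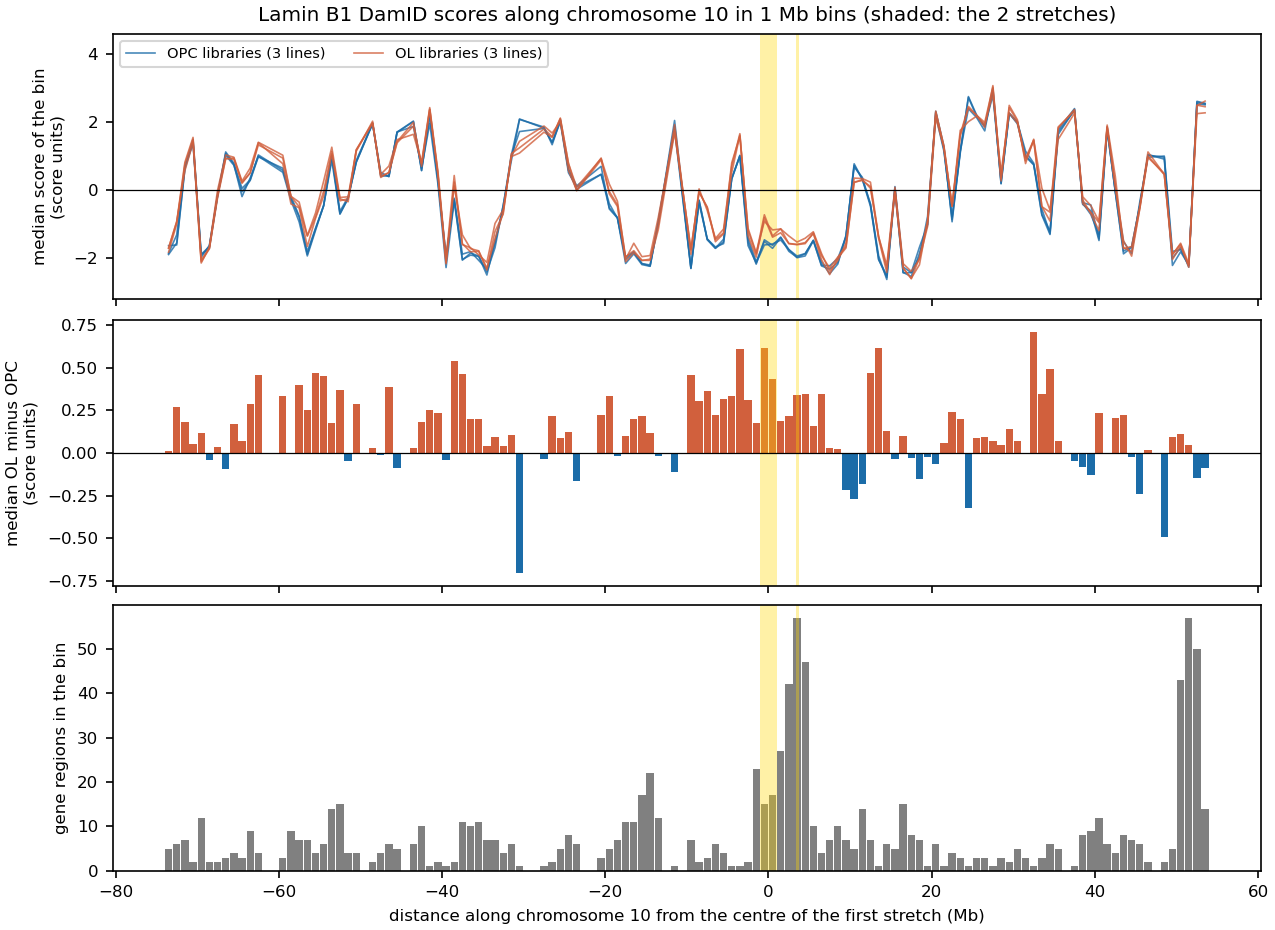
Median score per 1 Mb bin in each of the 6 libraries (top), median OL minus OPC difference (middle) and number of gene regions (bottom) against distance along chromosome 10 from the centre of the first stretch, with both stretches shaded. The lines of the 2 conditions rise and fall together, and 85 of 116 bins have a median difference above 0.

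Bin differences were mostly upward. The median difference was above 0 in 85 bins and below 0 in 31, and on equal mean and SD in 72 and 44. The medians of the 3 OL libraries all lay above those of the OPC libraries in 56 bins, all below in 11, and overlapped in 49. The 8 bins from 75 to 83 Mb hold both stretches and all have a median difference above 0: of 238 regions, 163 had all OL libraries above all OPC libraries (68.5%, against 33.5% of all regions) and 2 had them below (0.840%, against 15.4%). Bin medians of the difference there were 0.18 at 75 Mb, 0.61 at 76 Mb, 0.44 at 77 Mb, 0.19 at 78 Mb, 0.22 at 79 Mb, 0.34 at 80 Mb, 0.35 at 81 Mb and 0.16 at 82 Mb. Among these bins the values are highest in the first stretch, and a lower rise follows at 80 and 81 Mb.

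The reverse was seen from 86 to 89 Mb. These bounds follow the bin differences themselves, so nothing is read from the counts. Of 26 regions there, 16 had all OL libraries below all OPC libraries (61.5%, against 15.4% of all regions) and 4 had them above (15.4%, against 33.5%), and the median difference was −0.23. In the next bin, at 89 Mb, 6 of 7 regions had all OL libraries above all OPC libraries, with a median difference of 0.47.

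The first stretch scored mostly below 0 in both conditions. Of its 32 regions, 30 were below 0 in OPC (93.8%, against 71.4% of all regions) and 0 above, and in OL 26 were below 0 (81.2%, against 70.9%) and 4 above (limma). The library medians were −1.60, −1.66 and −1.59 in OPC and −1.06, −1.02 and −1.03 in OL. Every OPC median was thus below every OL median, and the groups did not overlap in any of the 32 regions. Over the whole table, every OL library lay above every OPC library in 33.5% of regions. The stretch was chosen by this difference, so nothing is read from the count. The median difference was 0.51, from 0.13 in Pfkl, a phosphofructokinase subunit, to 1.31 in Pcbp3, an RNA-binding protein. On equal mean and SD it was 0.399, with 27 regions free of overlap, and after quantile normalization 0.420 with 27. All 32 differences stayed above 0 in both. On these scales, 5304 and 5248 of all 21534 regions had every OL library above every OPC library.

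The edges of the first stretch were uneven. Just outside, Vpreb3 had a difference of −0.19, and the first region inside, Zfp280b, had 0.41. At the far end Pfkl, inside, had 0.13 and Aire, outside, had 0.10.

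Pcbp3 had the largest upward difference on the chromosome. Its scores were −1.75, −1.78 and −1.84 in OPC (libraries 8, 9 and 10, in this order throughout) and −0.38, −0.55 and −0.52 in OL (18, 19 and 20). The OPC libraries lay close together and far below all 3 OL libraries, and the mean went from −1.79 ± 0.04 to −0.48 ± 0.09 (SD, n = 3).

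The neighbouring collagen VI genes Col6a1 and Col6a2 encode chains of a microfibril of the extracellular matrix. Col6a1 scored −1.19, −1.10 and −1.07 in OPC and −0.33, −0.66 and −0.42 in OL. Col6a2 scored −0.87, −0.78 and −0.88 in OPC and −0.04, −0.24 and −0.24 in OL. Both had every OL library above every OPC library, by 0.65 and 0.67 on average. The OL mean of Col6a2, −0.17 ± 0.11, was below 0 with an adjusted p of 0.0137 (limma), which became 0.0841 without OL library 19 and 0.0933 without OL library 20. Col18a1, whose product carries endostatin, stayed lower, at −2.07 ± 0.04 in OPC and −1.55 ± 0.15 in OL.

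S100b encodes a calcium-binding protein used as a glial marker. It scored −2.26, −2.37 and −2.78 in OPC and −1.73, −1.76 and −1.71 in OL. The OL libraries lay close together and above the more scattered OPC libraries, with a mean difference of 0.74. Its window overlaps those of Prmt2, an arginine methyltransferase (difference 0.61), and Dip2a (0.49), so these values share sequence. Pcnt, the centrosome scaffold pericentrin, went from −1.70 ± 0.08 to −1.17 ± 0.03. Sumo3, a small ubiquitin-like modifier, had the lowest OPC score of the stretch, −2.71 ± 0.19, and −2.34 ± 0.07 in OL.

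In all, 4 regions of the stretch turned from below 0 in every OPC library to above 0 in every OL library. They were Slc5a4a and Slc5a4b, relatives of the sodium-glucose cotransporters, Tspear and Krtap10-10. Slc5a4b scored −0.35, −0.29 and −0.34 in OPC and 0.28, 0.36 and 0.33 in OL. Tspear scored −0.39, −0.42 and −0.43 in OPC and 0.16, 0.01 and 0.12 in OL. Its OL mean did not pass the test against 0 (adjusted p = 0.0823, limma; 0.0423 without OL library 19). The 3 keratin-associated protein genes, which encode hair shaft proteins, lie inside the Tspear window, so their scores overlap with it. Krtap10-4 was the highest of the stretch in both conditions, with 0.14, −0.36 and −0.08 in OPC and 0.84, 0.47 and 0.50 in OL. Its OPC libraries straddled 0 (adjusted p = 0.323, limma) and its OL libraries did not.

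**Figure D2:**
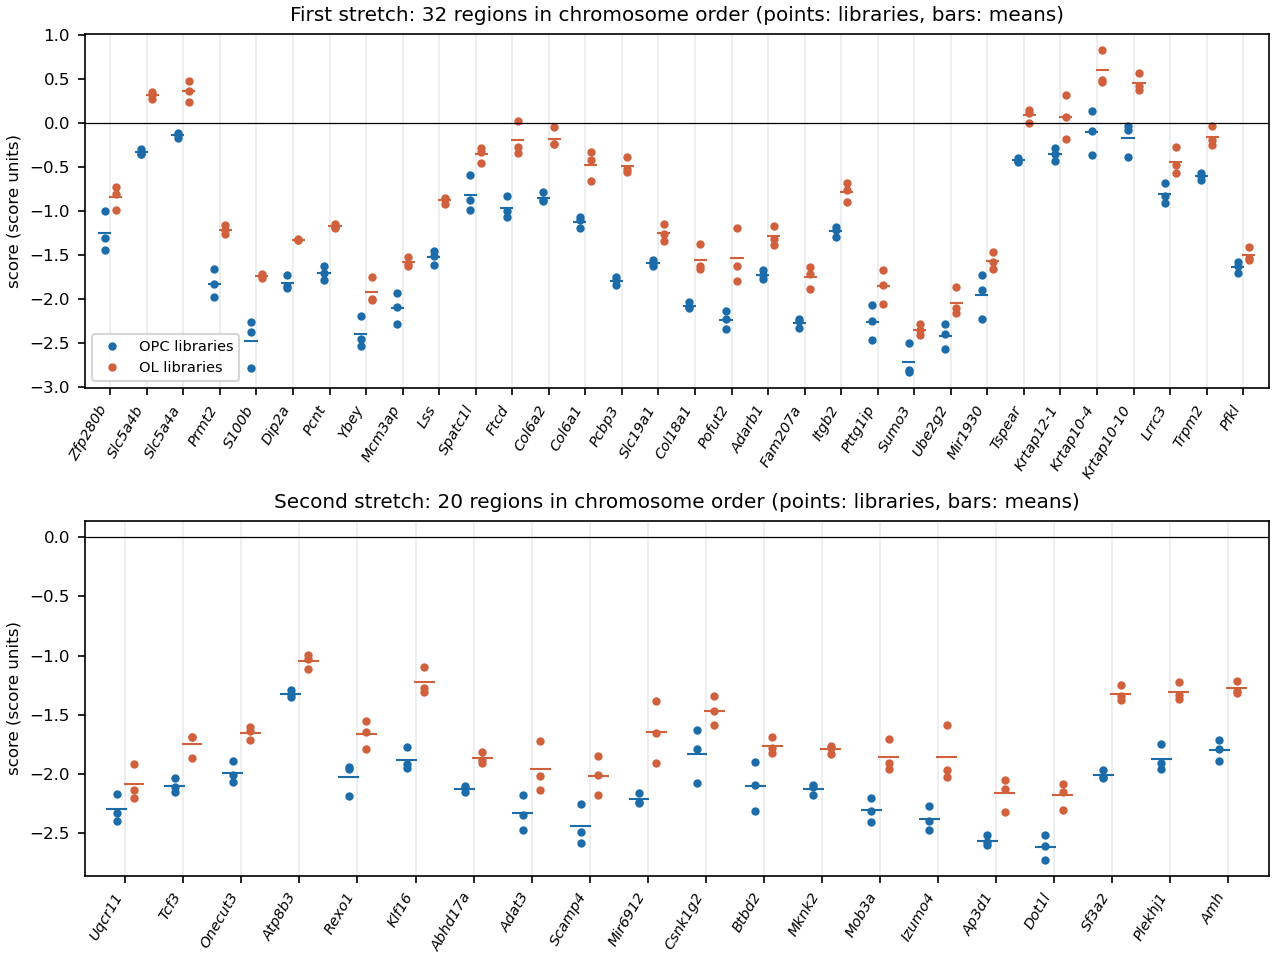
Scores of the 6 libraries (points) and their means (bars) in score units for the 32 regions of the first stretch (top) and the 20 of the second (bottom), in chromosome order. OL points lie above OPC points in all 32 regions of the first stretch and in 19 of 20 of the second, the exception being Uqcr11. The share over all regions was 33.5%, and the stretches were chosen by this difference.

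The second stretch scored lower and changed less. All 20 regions were below 0 in both conditions (limma), against 71.4% of all regions in OPC and 70.9% in OL. The library medians were −2.13, −2.17 and −2.06 in OPC and −1.67, −1.83 and −1.74 in OL, so the groups did not overlap. The median difference was 0.39, from 0.21 in Uqcr11, a subunit of respiratory complex III, to 0.69 in Sf3a2, a splicing factor subunit. In 19 regions (95%, against 33.5% of all regions) every OL library lay above every OPC library, the exception being Uqcr11. This stretch too was chosen by the difference, so nothing is read from the count. On equal mean and SD 16 regions kept every OL library above every OPC library (5304 of all 21534 regions), with a median of 0.258. After quantile normalization 15 did (5248 of all 21534), with 0.255. All 20 differences stayed above 0 in both.

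The difference stayed above 0 across both edges of the second stretch. Mbd3, just outside, had a difference of 0.27 and Uqcr11, just inside, had 0.21. Amh, the last inside, had 0.52 and Jsrp1, just outside, had 0.32.

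Sf3a2, Plekhj1 and Amh sit side by side at the end of the stretch and their windows overlap. Sf3a2 scored −2.04, −1.97 and −2.03 in OPC and −1.25, −1.34 and −1.38 in OL. Amh, the anti-Müllerian hormone gene, scored −1.79, −1.71 and −1.89 in OPC and −1.21, −1.30 and −1.32 in OL. In both, all OL libraries were higher and all 6 stayed well below 0. Dot1l, the H3K79 methyltransferase, had the lowest OPC mean of the stretch, −2.61 ± 0.10, and −2.18 ± 0.11 in OL. Tcf3, which encodes the E proteins E12 and E47, went from −2.10 ± 0.06 to −1.74 ± 0.10. Klf16, a zinc finger factor, went from −1.88 ± 0.09 to −1.23 ± 0.11. Atp8b3, a phospholipid flippase, was the highest of the stretch at −1.32 ± 0.03 in OPC and −1.05 ± 0.06 in OL.

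The stretches belong to longer runs. From Efna2 to Txnrd1, 103 consecutive regions over 2.73 Mb had a difference above 0, with a median of 0.34, and 99 of them stayed above 0 on equal mean and SD. That run was the longest of 2871 in the table. From Zfp280b to Trappc10, 38 consecutive regions were above 0, with 37 on equal mean and SD. Counting only regions without overlap between conditions, the run from Zfp280b to Pfkl (32 regions) was the longest of 3120. The run from Atcayos to Gna11 at 81.2 to 81.6 Mb (25 regions, median difference 0.38) was next. Since overlapping windows share signal, and the runs were the ground for choosing the chromosome, the ranks are descriptions.

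Other upward runs lay in blocks with other levels. From Pex3 to Abracl, 12 regions over 4.51 Mb had a median OPC score of 0.50 and OL score of 0.92. From Pde7b to Tbpl1, 10 regions had −1.10 and −0.65. From Syt1 to Glipr1, 11 regions had −0.77 and −0.30. The higher OL scores were therefore seen at regions above 0 as well as below.

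Outside the stretches the largest upward differences were in E2f7 and Lama4. E2f7, an atypical E2F repressor of cell cycle genes, scored −0.65, −0.55 and −0.73 in OPC and 0.50, 0.35 and 0.39 in OL. It passed from below to above 0 in every library. Lama4, a laminin chain of vascular basement membranes, scored −1.20, −1.09 and −1.15 in OPC and −0.07, −0.17 and −0.06 in OL. Its OL mean did not pass the test against 0 (adjusted p = 0.0735, limma; 0.0276 on equal mean and SD, 0.0245 after quantile normalization). Ank3, which encodes ankyrin-G of the axon initial segment and nodes, went from −1.44 ± 0.02 to −0.53 ± 0.05.

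Lrrtm3, a synaptic adhesion protein gene, scored −0.56, −0.59 and −0.53 in OPC and 0.43, 0.28 and 0.25 in OL. It too was below 0 in all OPC libraries and above in all OL libraries. Mif, a cytokine gene close to the first stretch, went from −2.08 ± 0.18 to −1.21 ± 0.18. Fbxo5, an inhibitor of the anaphase-promoting complex, went from −2.07 ± 0.10 to −1.21 ± 0.33, and Nap1l1, a histone chaperone, from −2.18 ± 0.22 to −1.34 ± 0.04.

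Mettl7b, a methyltransferase-like gene, had the largest downward difference on the chromosome, −1.61. It scored 0.03, 0.46 and 0.40 in OPC and −1.48, −1.19 and −1.25 in OL. The OPC mean of 0.30 ± 0.23 was above 0 with an adjusted p of 0.0072 (limma), which became 0.0671 without OPC library 9 and 0.0505 without OPC library 10. The OL libraries were all far below 0. Its neighbour Itga7, a laminin-binding integrin, scored −1.19, −1.05 and −1.24 in OPC and −1.87, −1.87 and −2.06 in OL. These genes open a run of 9 regions, to Olfr770, with every OL library below every OPC library and a median difference of −0.51.

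Lrig3, a transmembrane leucine-rich repeat gene, scored 0.01, 0.01 and −0.11 in OPC and −0.82, −0.91 and −0.87 in OL. The OPC libraries were near 0 (adjusted p = 0.557, limma) and the OL libraries below it. Plekhg1 went from −1.11 ± 0.09 to −1.75 ± 0.06, and the small nucleolar RNA Snord14d from 1.97 ± 0.21 to 1.26 ± 0.17. Gja1, the astrocyte gap junction protein connexin 43, scored 0.29, 0.20 and 0.05 in OPC and −0.33, −0.42 and −0.40 in OL. With Hddc2 and Mettl7b it was 1 of the 3 regions that went from above 0 in every OPC library to below 0 in every OL library. Gja1 and Hddc2 are named here after their values were seen.

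**Figure D3:**
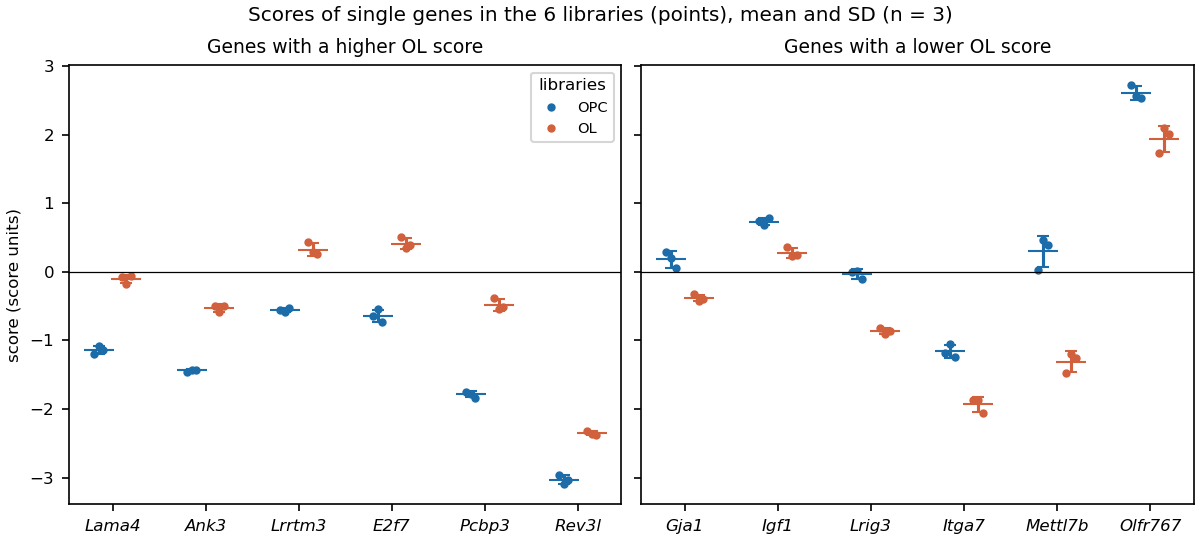
Scores of 12 chromosome 10 genes in the 6 libraries (points) with mean and SD (n = 3), in score units, for genes with higher (left) and lower (right) OL scores. Lrrtm3 and E2f7 cross from below to above 0, and Gja1 and Mettl7b cross from above to below 0.

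Further downward runs lay at 85.96 to 88.69 Mb and 121.4 to 123.1 Mb. Those of the first interval largely repeat the regions from 86 to 89 Mb described above. From Bpifc to Tyms-ps, 13 consecutive regions had a difference below 0, with a median of −0.27 and −0.35 on equal mean and SD. From Ccdc53 to Spic, 7 regions had a median of −0.34. From Rassf3 to Mon2, 10 regions had a median of −0.18. All regions of these 3 runs stayed below 0 on equal mean and SD and after quantile normalization.

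The 6 genes named for the highest OPC scores were limited to 2 of a family by symbol, which shapes their make-up. Of these, 4 were chemosensory receptor genes and 2 were microRNA genes. Olfr802, an olfactory receptor gene, scored 3.32, 3.29 and 3.28 in OPC and 3.24, 3.16 and 3.20 in OL. Its difference of −0.10 became 0.00 on equal mean and SD. The vomeronasal receptor genes Vmn2r86 and Vmn2r85 had OPC means of 2.68 ± 0.07 and 2.66 ± 0.10. The microRNA genes Mir6411 and Mir684-1 had 2.91 ± 0.10 and 2.74 ± 0.10. A run of 64 regions from Olfr763 to Vmn2r87 passed the test above 0 in OPC, with median scores of 2.59 in OPC and 2.43 in OL. Mir684-1 lies within this run, so its score belongs to the same block.

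Of 67 olfactory receptor genes on the chromosome, 66 were above 0 in both conditions, and 1, Olfr9, was below in OPC at −0.28 (limma). Their median OPC score was 2.54. The difference was below 0 in 43 and above in 24, with a median of −0.10. On equal mean and SD that split was 34 below and 33 above, so no direction is given for the group. Within it, Olfr781 scored 3.10, 3.22 and 3.11 in OPC and 2.51, 2.59 and 2.54 in OL. Olfr767 and Olfr776 were lower in every OL library as well, by 0.67 and 0.59 on average. The median GC content of 54 olfactory receptor promoters was 31.6%, against 58.4% over chromosome 10, and 27.8% of them held GATC.

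All 15 trace amine-associated receptor genes were above 0 in both conditions (limma), with a median OPC score of 1.03. The difference was above 0 in 14 and below 0 in 1, against 711 and 273 of the 984 chromosome 10 regions. Its median was 0.13. The counts of the group were 14 and 1 on equal mean and SD, 13 and 2 after quantile normalization, and 12 and 3 without OL library 18. In 7 (46.7%, against 33.5% of all regions and 44.4% of chromosome 10) every OL library was above every OPC library. The chromosome was chosen by this difference, so nothing is read from these counts. Taar5 had the largest difference, 0.77.

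The lowest OPC scores on the chromosome were near −3. Rev3l, the catalytic subunit of DNA polymerase zeta, scored −2.96, −3.09 and −3.04 in OPC and −2.32, −2.37 and −2.38 in OL. Every OL library was higher, yet all 6 were deeply below 0. Vps26a of the retromer had an OPC mean of −2.95 ± 0.31, Sar1a of vesicle export −2.87 ± 0.21, and Jmjd1c, a jumonji-domain gene, −2.86 ± 0.02. Ccar1 had −2.94 ± 0.07 and Snord98, which lies inside its window, −3.02 ± 0.15. Jmjd1c and Ccar1 had differences of 0.00 and 0.02, and that of Ccar1 turned to −0.15 on equal mean and SD.

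**Figure D4:**
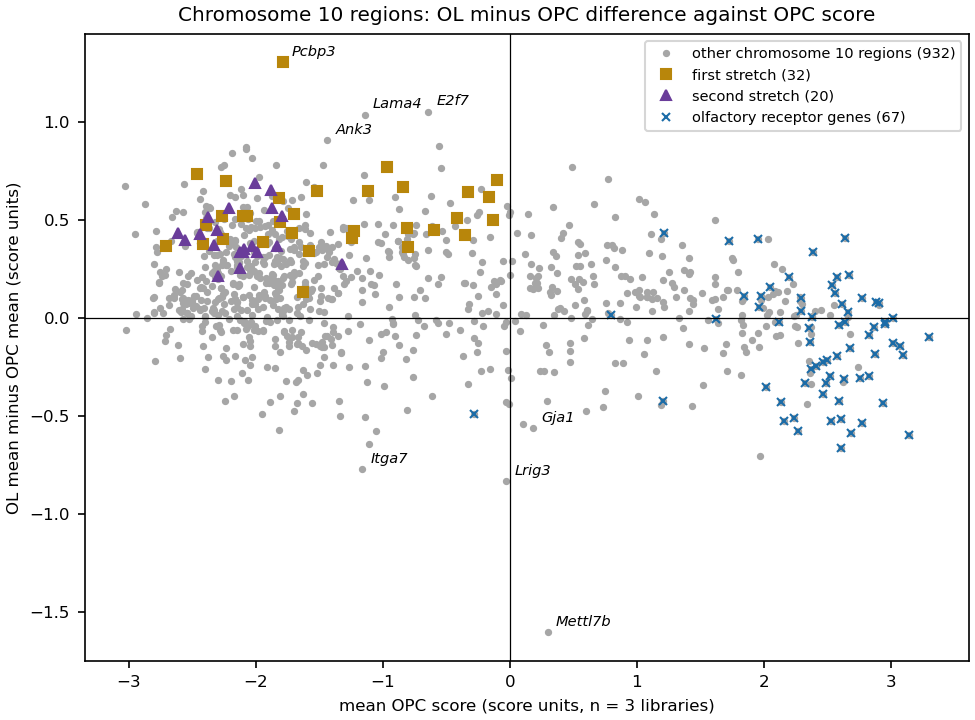
OL minus OPC difference against mean OPC score for the 984 chromosome 10 regions, in score units, with the stretches and olfactory receptor genes marked. All stretch regions lie above 0 on the vertical axis, and olfactory receptor genes lie at the right on both sides of 0.

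The gene groups that follow are read against the share of all regions: 71.4% were below 0 and 25.5% above in OPC, 70.9% and 25.9% in OL, and every OL library was above every OPC library in 33.5% and below in 15.4%. All members lie on chromosome 10, which was chosen for higher OL scores. There these last shares were 44.4% and 11.3%. Some members, such as S100b, Tcf3 and Pcnt, lie in the stretches. Nothing is therefore read from the group counts of the difference. Of 17 genes of the glial lineage, 14 were below 0 in OPC (82.4%) and 2 above, and in OL 15 and 1 (limma). Fyn, a kinase in myelination, scored −2.77, −2.80 and −2.83 in OPC and −2.55, −2.84 and −2.68 in OL, and the libraries overlapped. Its mean difference of 0.11 turned to −0.05 on equal mean and SD. Erbb3, a neuregulin receptor, had −2.39 ± 0.05 and −2.20 ± 0.02. Hdac2, a histone deacetylase, went from −0.96 ± 0.09 to −0.62 ± 0.13. In 10 of the 17 (58.8%, against 33.5% of all regions and 44.4% of chromosome 10) every OL library was above every OPC library. In 2, Gja1 and the growth factor Igf1, every OL library was below.

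Igf1 is 1 of the 2 glial lineage genes above 0 in OPC, with a mean of 0.73 and a difference of −0.46. The median difference over the 17 genes was 0.21, and 0.08 on equal mean and SD. It was 0.10 and 0.02 over all regions, and 0.15 and 0.09 over chromosome 10.

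Of 20 cell cycle and DNA damage genes, 16 were below 0 in OPC (80.0%, against 71.4% of all regions) and 3 above, and in OL 15 and 4 (limma). In 13 (65.0%, against 33.5% of all regions and 44.4% of chromosome 10), every OL library was above every OPC library, and in 0 below. The median difference was 0.35, and 0.25 on equal mean and SD. Cdk1, the mitotic kinase, went from −2.16 ± 0.13 to −1.79 ± 0.16, and Mdm2, the p53 ubiquitin ligase, from −2.39 ± 0.19 to −1.93 ± 0.07. Cdk2, an S-phase kinase, had −2.14 ± 0.19 and −1.96 ± 0.04, and Cdk4, a G1 kinase, −1.48 ± 0.08 and −1.60 ± 0.15. The differences ran from −0.12 in Cdk4 to 1.05 in E2f7.

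Of 7 nuclear envelope and pore genes, 5 were below 0 and 2 above in both conditions (limma), which is the share of all regions in OPC, 71.4%. Lmnb2, which encodes lamin B2, had −1.70 ± 0.15 in OPC and −1.48 ± 0.06 in OL. Tmpo, which encodes LAP2 proteins of the inner membrane, went from −2.66 ± 0.08 to −2.14 ± 0.03. Lemd3, an inner membrane LEM-domain protein gene, had −1.83 ± 0.07 and −1.84 ± 0.15. Syne1, the large nesprin-1 gene, was above 0, at 1.12 ± 0.03 and 1.22 ± 0.05. In 5 of the 7 every OL library was above every OPC library, against 33.5% of all regions and 44.4% of chromosome 10.

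All 12 chromatin enzymes and regulators were below 0 in both conditions (limma), with a median OPC score of −2.22. The difference was above 0 in 10, but in 6 on equal mean and SD and after quantile normalization. Mbd3, a subunit of the NuRD complex next to the second stretch, had −2.32 ± 0.14 and −2.05 ± 0.16.

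Of 24 neuronal genes, 17 were above 0 in OPC (70.8%, against 25.5% of all regions) and 7 below, and in OL 19 and 5 (limma). Grik2, a kainate receptor subunit, scored 1.86, 1.83 and 1.82 in OPC and from 1.71 to 1.89 in OL. Its libraries overlapped, and the difference of −0.03 turned to 0.00 and 0.01 on the other scales. Kcnc2, a voltage-gated potassium channel, had 2.30 ± 0.03 and 2.38 ± 0.07. The median difference of the 24 genes was 0.14, and 0.15 on equal mean and SD. Lrrtm3 and Anks1b, a synaptic scaffold, had the largest, 0.88 and 0.77, and both went from below 0 in all OPC libraries to above 0 in all OL libraries.

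Collagen and basement membrane genes had the largest median difference among the groups of 5 genes or more, 0.52, and 0.41 on equal mean and SD. Of 7, 5 were below 0 in OPC and 2 above (limma). Of the 7, 3 (Col6a1, Col6a2 and Col18a1) lie in the first stretch, and the median of 0.52 is the value of Col18a1. The group median thus largely repeats the first stretch, and nothing is read from its rank. Every OL library was above every OPC library in 4, these 3 and Lama4 (57.1%, against 33.5% of all regions and 44.4% of chromosome 10). Lama2, a muscle and nerve laminin chain, and Col10a1, a cartilage collagen, were above 0 with OPC means of 2.03 and 1.25.

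**Figure D5:**
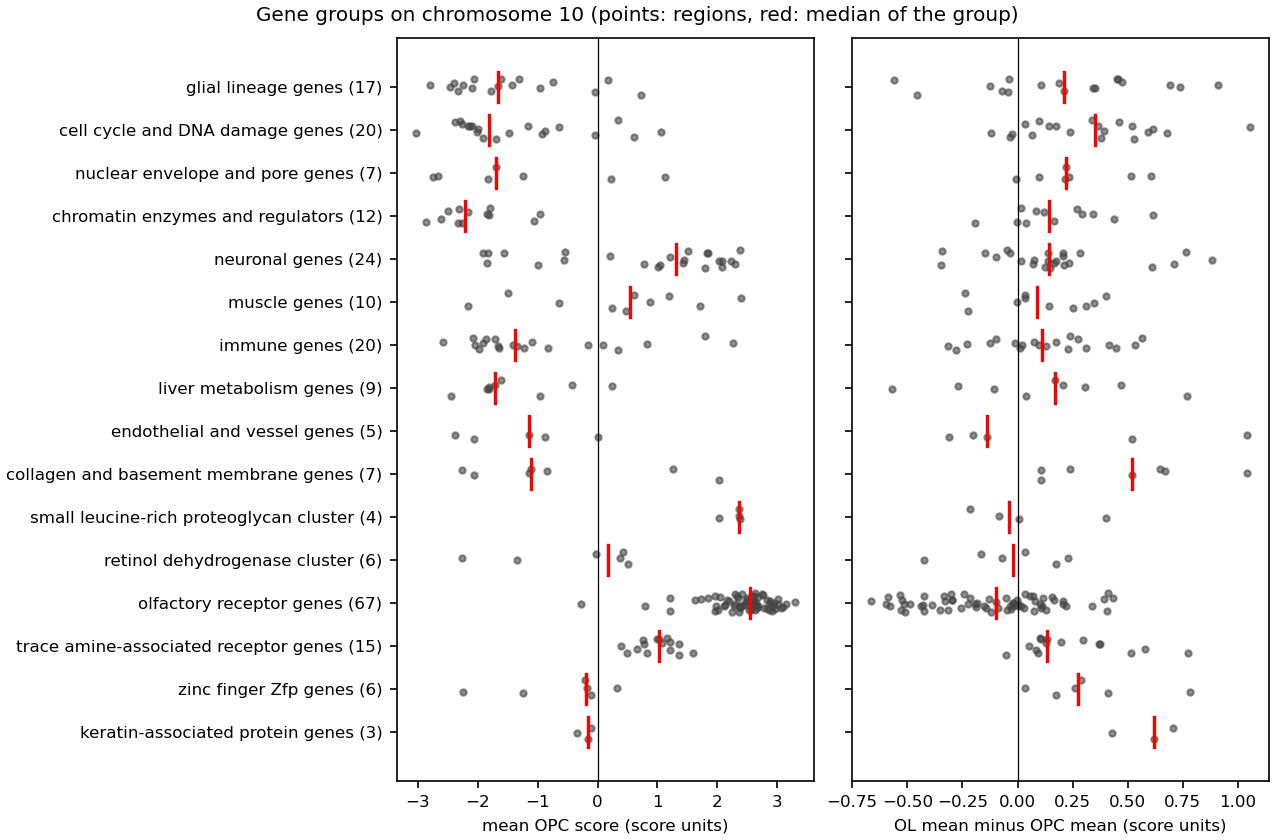
Mean OPC score (left) and OL minus OPC difference (right), in score units, for the members of 16 gene groups on chromosome 10, with the median of each group in red. Olfactory receptor genes lie furthest right in level, and keratin-associated protein genes, all in the first stretch, have the largest median difference, 0.62.

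Groups of other tissues varied in level. The 4 small leucine-rich proteoglycan genes Dcn, Lum, Kera and Epyc, which encode matrix and corneal proteoglycans, were all above 0 in both conditions (limma), with a median OPC score of 2.36. Of 10 muscle genes, 7 were above 0 and 3 below, with the triad protein gene Trdn at 2.40 and the myogenic factor gene Myf5 at 1.72 in OPC. Of 20 immune genes, 4 were above 0 and 15 below in OPC (near the 71.4% of all regions). Il22 and Ifng, neighbouring cytokine genes, were high at 2.27 and 1.79, and Il23a, another cytokine gene, was low at −2.58. Every OL library was above every OPC library in 8 immune genes (40.0%, against 33.5% of all regions) and below in 3 (15.0%, against 15.4%). For the muscle genes these counts were 5 and 1, and for the proteoglycan genes 1 and 1.

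Of 9 liver metabolism genes 8 were below 0 in OPC and 1 above, and of 5 endothelial and vessel genes 4 and 0. Among 6 retinol dehydrogenase genes 3 were above 0 and 2 below. Of the 6 zinc finger genes in the list, 4 were below 0 in OPC and 1 above. With so few genes, these counts are not set apart from the 71.4% of all regions below 0. The differences in these groups ranged from −0.57 in Apof to 1.04 in Lama4.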

How the data were processed

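Lamin B1 DamID-seq scores of 6 Dam-LMNB1 libraries over 21534 gene regions were used as deposited. The authors' values are scores per region, taken against the pooled Dam libraries of the condition per the labels. Per the submitters' processing notes, reads were handled with cutadapt 1.9.1 and BWA 0.7.17 on mm10. How scores were derived from the reads was not given in the sources used here. Separate Dam values were not analysed here.

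Region starts were converted to 1-based. A linear model with 1 mean per condition was fitted to all regions with limma 3.58.1 (R 4.3.3, 9.42 total degrees of freedom), and each mean was tested against 0, two-sided, at an adjusted p of 0.05 (Benjamini-Hochberg, all 21534 regions). The same fit was tested on simulated data. OL minus OPC, which chose the chromosome, was fitted in the same model. Its calls are printed as counts beside the background only, and no p-value of it is given. No set was tested.

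The members, gene lists and named genes were chosen with earlier results of these data known. The named genes were the 6 highest and 6 lowest OPC means (at most 2 of a family), the 8 largest differences in each direction among regions without overlap of libraries, the extreme and median regions of each stretch, and genes chosen for their function. Further list members are named as examples, after their values were seen, and 1 named gene is not reported here. Where a gene had several regions, the widest was used. Lists were 16 groups of chromosome 10 genes, and Nemp1 and Rdh1 were not found. Gene types and promoters came from RefSeq tables (GRCm38.p6), which matched 962 of 984 regions.

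Alternatives were equal mean and SD per library, quantile normalization, no variance trend, protein-coding genes only, non-overlapping regions only, a minimum of 0.5, other bins, and leaving out each library.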

Additional observations from a re-analysis of the deposited data

How the results depend on the processing

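Counts against 0 on chromosome 10 were 675 below and 281 above in OPC, and 659 and 295 in OL. They were within 1.5 times of these values under every setting except non-overlapping regions only. That setting holds 664 of the 984 regions. It gave 409 below and 237 above 0 in OPC, 395 and 248 in OL, and 198 higher in OL. The counts below 0 fell by more than those above 0, so the shares depend on how overlapping windows are counted. With an absolute difference over 0.5 required, 94 regions were higher and 20 lower in OL. The median difference of the first stretch, 0.507, moved to 0.399 on equal mean and SD and 0.420 after quantile normalization, and that of the second, 0.386, to 0.258 and 0.255. Bins with a median difference above 0 numbered 145 of 199 at 0.5 Mb and 49 of 64 at 2 Mb, against 85 of 116 at 1 Mb. The cause of the moves in the medians was not tested.

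Leaving out each library in turn gave 227 to 284 regions higher and 50 to 80 lower in OL, against 318 and 72. These calls are of the contrast that chose the chromosome, so nothing is read from how they hold. It gave 274 to 281 regions above and 670 to 677 below 0 in OPC, and 291 to 295 above and 647 to 662 below 0 in OL. The median difference was 0.125 to 0.163 over the chromosome, 0.484 to 0.532 in the first stretch and 0.351 to 0.445 in the second, and 76 to 90 bins were above 0. Of 1044 alternative values for the levels of 58 named genes, 1037 kept their side of the threshold, 4 lost it and 3 gained it. In 0 did the sign change with the main or the alternative value past the threshold. Sign changes between values that both failed it were not counted.

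No paired analysis was possible because OPC libraries 8 to 10 and OL libraries 18 to 20 share no replicate numbers. Each condition has 1 pooled Dam denominator, so a difference in Dam between conditions cannot be told apart from one in Dam-LMNB1. Read depth is unknown, so no counting error can be given.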

Other observations

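Level changed sharply between some neighbours on chromosome 10. Among 540 neighbouring pairs of regions that do not overlap, the median absolute step in OPC score was 0.48, and 37 pairs had a step over 2, of which 27 also had one over 2 in OL. The largest lay between Pkib, a protein kinase inhibitor gene, at 1.37 and Fabp7, a fatty acid-binding protein of radial glia and precursors, at −2.38 in OPC. They are 31.8 kb apart as windows, and in OL the scores were 1.61 and −2.30. Between Rhobtb1 and Cdk1 the OPC step was −2.32, with −2.11 in OL. Between Taar9 and the syntaxin gene Stx7 the OPC step was −2.22, and between the phosphatase genes Ptprr and Ptprb −2.21. These pairs were chosen by the size of the step, so the values are a description.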
